A study of Mus musculus with 67 samples.

Results

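MHC class I presentation genes were followed here in T cells sorted from the mouse hypothalamus and the rest of the brain. The genes were 10 that were chosen by name from the textbook pathway: B2m, H2-K1, H2-D1, Tap1, Tap2, Tapbp, Psmb8, Psmb9, Psmb10 and Nlrc5. All 10 were found, among 24471 gene features of the second experiment and 24421 symbols of the pilot experiment, and in the second experiment all 10 passed the filter on low counts in every comparison.

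MHC class I molecules show fragments of a cell's own proteins to CD8+ T cells. A heavy chain, encoded in C57Bl/6J mice by H2-K1 and H2-D1, pairs with the light chain B2m. The peptides are cut by the immunoproteasome, whose catalytic subunits Psmb8, Psmb9 and Psmb10 replace those of the constitutive proteasome, are pumped into the endoplasmic reticulum by the Tap1 and Tap2 transporter, and are loaded with the help of tapasin (Tapbp). Nlrc5 is the transactivator of these promoters, and interferon-γ is a known inducer of the whole pathway. T cells carry class I molecules at their own surface, so levels in sorted CD4+ T cells are levels of presenting, not of recognising, machinery.

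The study asked how a high-fat high-sugar (HFHS) diet, compared with standard diet (SD), changes T cells of the brain, and deposited 67 RNA-seq libraries. The second experiment held 59 libraries of pooled cells: 29 of activated conventional T cells (activated Tconv; gate live CD4+CD25-Foxp3GFP-CD44hiCD62Llow), for which the methods give pools of 5 mice, and 30 of cells labelled Tregs, whose pools the methods do not describe. Mice of 2 strains, Balb/c and C57Bl/6J, each fed SD or HFHS diet, gave both cell types from the hypothalamus and from the brain without it, in groups of 2 to 4 libraries. The pilot experiment held 8 libraries of hypothalamic cells, 1 for each condition. Of these, 4 came from pools of 9 female Foxp3GFP Balb/c mice after 16 weeks of HFHS or regular diet, as CD4+CD44- naive T cells by the label (CD4+CD25-CD44low+int in the methods) and CD4+CD25+Foxp3+ Tregs. The other 4 came from pools of 7 female leptin-deficient ob/ob or C57Bl/6J wild-type (WT) mice, as CD4+ T cells and CD25hi Tregs. The Foxp3GFP reporter marks Foxp3-expressing cells and was part of the gate in the second experiment on either diet. Per the methods, HFHS feeding began in 6-week-old mice, female for Balb/c and male for C57Bl/6J, so strain and sex cannot be told apart. No label gives the number of weeks on diet in the second experiment. Nothing in the labels says that the pools of a group came from separate experiments, and p-values measure the spread between these pools.

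The 59 libraries of the second experiment held 1724154 to 38482281 estimated counts. The pilot libraries held 99925 to 5334511 counts on genes. The summed level of 5 T-cell genes (Cd3d, Cd3e, Cd3g, Cd4, Lck) was 4108 to 8595 CPM (counts of a gene scaled to a common library total) in all libraries but 1, and the summed level of 4 Treg genes had group medians of 1473 to 2248 CPM in Treg libraries against 112 to 229 CPM in activated Tconv libraries. Both libraries that stood apart were hypothalamic Tregs on SD. The Balb/c pool 32_36 held 19053 CPM of 6 microglial genes. The C57Bl/6J pool 11_15 held 167 CPM of the T-cell genes and 35.1 CPM of the Treg genes. Calls of members in hypothalamic Tregs are given with and without these libraries, whereas levels, shares and their spread include them unless stated. In all bulk libraries, fewer cells of a type and less RNA per cell cannot be told apart.

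The members lie on 3 chromosomes of the mouse genome (GRCm38). B2m is on chromosome 2 (chr2:122147687-122153082), Nlrc5 and Psmb10 are on chromosome 8 (chr8:94434335-94527272 and chr8:105935728-105938392), and the other 7 are in the MHC on chromosome 17. There the order is Tapbp (chr17:33919478-33929290), H2-K1 (chr17:33996012-34000619), Psmb9 (chr17:34182030-34187330), Tap1 (chr17:34187556-34197225), Psmb8 (chr17:34198195-34201454), Tap2 (chr17:34204479-34216321) and H2-D1 (chr17:35263094-35267497). Counts were read against the C57Bl/6J sequence, which carries the b alleles of the MHC (H2-b), whereas Balb/c carries H2-d and in addition the heavy chain gene H2-L. Levels of heavy chain genes in Balb/c therefore depend on how well d alleles matched b sequences and on how reads were shared among heavy chain genes, which are near copies of each other. B2m, the transporter, tapasin and immunoproteasome genes have no such copies.

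The regions before the start sites are shown because the members were compared for moving together. RefSeq promoter windows (build GRCm38.p6) were matched for 8 of the 10 genes, out of 27025 in the table. Nlrc5 and Tap2 had no entry. The 250 bases before the start site are given 5′ to 3′ in the direction of transcription for B2m (chr2:122147437-122147686, plus strand), H2-K1 (chr17:34000348-34000597, minus strand), H2-D1 (chr17:35262844-35263093, plus strand) and Tap1 (chr17:34187306-34187555, plus strand). Capitals mark CCAAT or its reverse complement ATTGG, the interferon-response letters GAAANNGAAA, and GGGGATTCCCC, the letters of the known enhancer A of heavy chain genes.
B2m: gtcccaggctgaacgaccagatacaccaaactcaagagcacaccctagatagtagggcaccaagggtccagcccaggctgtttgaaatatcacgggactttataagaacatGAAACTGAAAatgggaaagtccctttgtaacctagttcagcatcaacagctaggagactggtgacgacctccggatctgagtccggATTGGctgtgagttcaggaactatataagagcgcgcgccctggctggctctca
H2-K1: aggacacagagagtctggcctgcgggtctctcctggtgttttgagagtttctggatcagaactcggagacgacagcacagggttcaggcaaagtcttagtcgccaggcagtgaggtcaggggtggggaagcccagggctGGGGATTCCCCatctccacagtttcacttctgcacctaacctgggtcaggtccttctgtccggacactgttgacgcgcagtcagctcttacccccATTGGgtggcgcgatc
H2-D1: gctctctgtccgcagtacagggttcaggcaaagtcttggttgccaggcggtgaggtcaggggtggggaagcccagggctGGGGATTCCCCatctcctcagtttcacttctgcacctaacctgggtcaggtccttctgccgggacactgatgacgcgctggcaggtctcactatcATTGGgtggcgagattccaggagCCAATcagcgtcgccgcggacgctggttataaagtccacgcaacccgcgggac
Tap1: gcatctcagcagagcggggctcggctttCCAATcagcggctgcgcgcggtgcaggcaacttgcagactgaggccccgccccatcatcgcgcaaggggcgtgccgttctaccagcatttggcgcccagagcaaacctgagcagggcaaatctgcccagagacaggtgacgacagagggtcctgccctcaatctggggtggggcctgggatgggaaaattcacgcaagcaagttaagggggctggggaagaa
Both strands were searched in all 8 windows, for exact letters only. An interferon element spelled otherwise would be missed, so a window without a match may still hold one. GAAANNGAAA was found once, in B2m, at positions -139 to -130 from the start site, and it occurred in 2.98% of 32851 windows of the same length. GGGGATTCCCC was taken from the H2-K1 and H2-D1 windows themselves, as the longest run of overlapping GGGNNNNNCC matches they share, and lay at -111 to -101 in H2-K1 (RefSeq start 34000347, inside the gene span given above; from a second RefSeq start at 34000333 it lay at -125 to -115) and at -171 to -161 in H2-D1. Its presence in both is fixed by this choice, and 0.0304% of all windows hold it. The looser letters GGGNNNNNCC matched inside that stretch and occurred in 45.8% of all windows. CCAAT, on either strand, was present in all printed windows, in those of Psmb9 and Tapbp, and in 33.8% of all windows. The windows of H2-K1 and H2-D1 were identical at 166 of 190 aligned bases (87.4%). Tap1 and Psmb9 are transcribed away from each other with 225 bases between their start sites, so the Tap1 window holds most of the Psmb9 promoter in reverse. The letters TTCNNNGAA, searched as the gamma activated sequence and present in 7.02% of all windows, were found only in Psmb8, at -97 to -89.

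On the scale of deposited TPM, which divides counts by transcript length, scales each library to a common total and allows genes to be compared, the members spanned a wide range of levels. In the 29 activated Tconv libraries B2m ranged from 22507 to 42161 TPM with a median of 28766 TPM, and ranked 2 among all genes. H2-D1 followed with a median of 4992 TPM (1176 to 8070) and H2-K1 with 2877 TPM (694 to 5363). H2-D1 was above H2-K1 in all 29 libraries. Of the immunoproteasome subunits, Psmb8 had a median of 1589 TPM (845 to 1915), Psmb9 of 702 TPM (475 to 1180) and Psmb10 of 321 TPM (241 to 439.5). The order of these 3 subunits was the same in every library. Tapbp (median 102 TPM), Tap1 (96.9 TPM) and Tap2 (74.0 TPM) were close to each other, since Tapbp was above Tap1 in only 16 of 29 libraries and Tap1 above Tap2 in 23. Nlrc5 was lowest, with a median of 19.2 TPM (6.80 to 81.3), and was below Tap2 in 28 libraries. In the 30 Treg libraries the median TPM was 27212 for B2m, 6818 for H2-D1, 1559.6 for Psmb8, 153 for Tapbp, 143 for Tap2 and 13.4 for Nlrc5.

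Each immunoproteasome subunit replaces a constitutive one, so their share of each pair was computed in TPM. In activated Tconv the group medians were 83.5% to 86.8% for Psmb8 in the pair with Psmb5, 61.9% to 73.4% for Psmb9 with Psmb6, and 54.4% to 65.5% for Psmb10 with Psmb7. The inducible subunit was thus the more abundant one of each pair by these medians, in both strains and both tissues. In hypothalamic activated Tconv the Psmb9 share was 72.1% to 75.8% in 8 Balb/c libraries and 54.6% to 70.8% in 8 C57Bl/6J libraries, with no overlap.

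**Figure D1:**
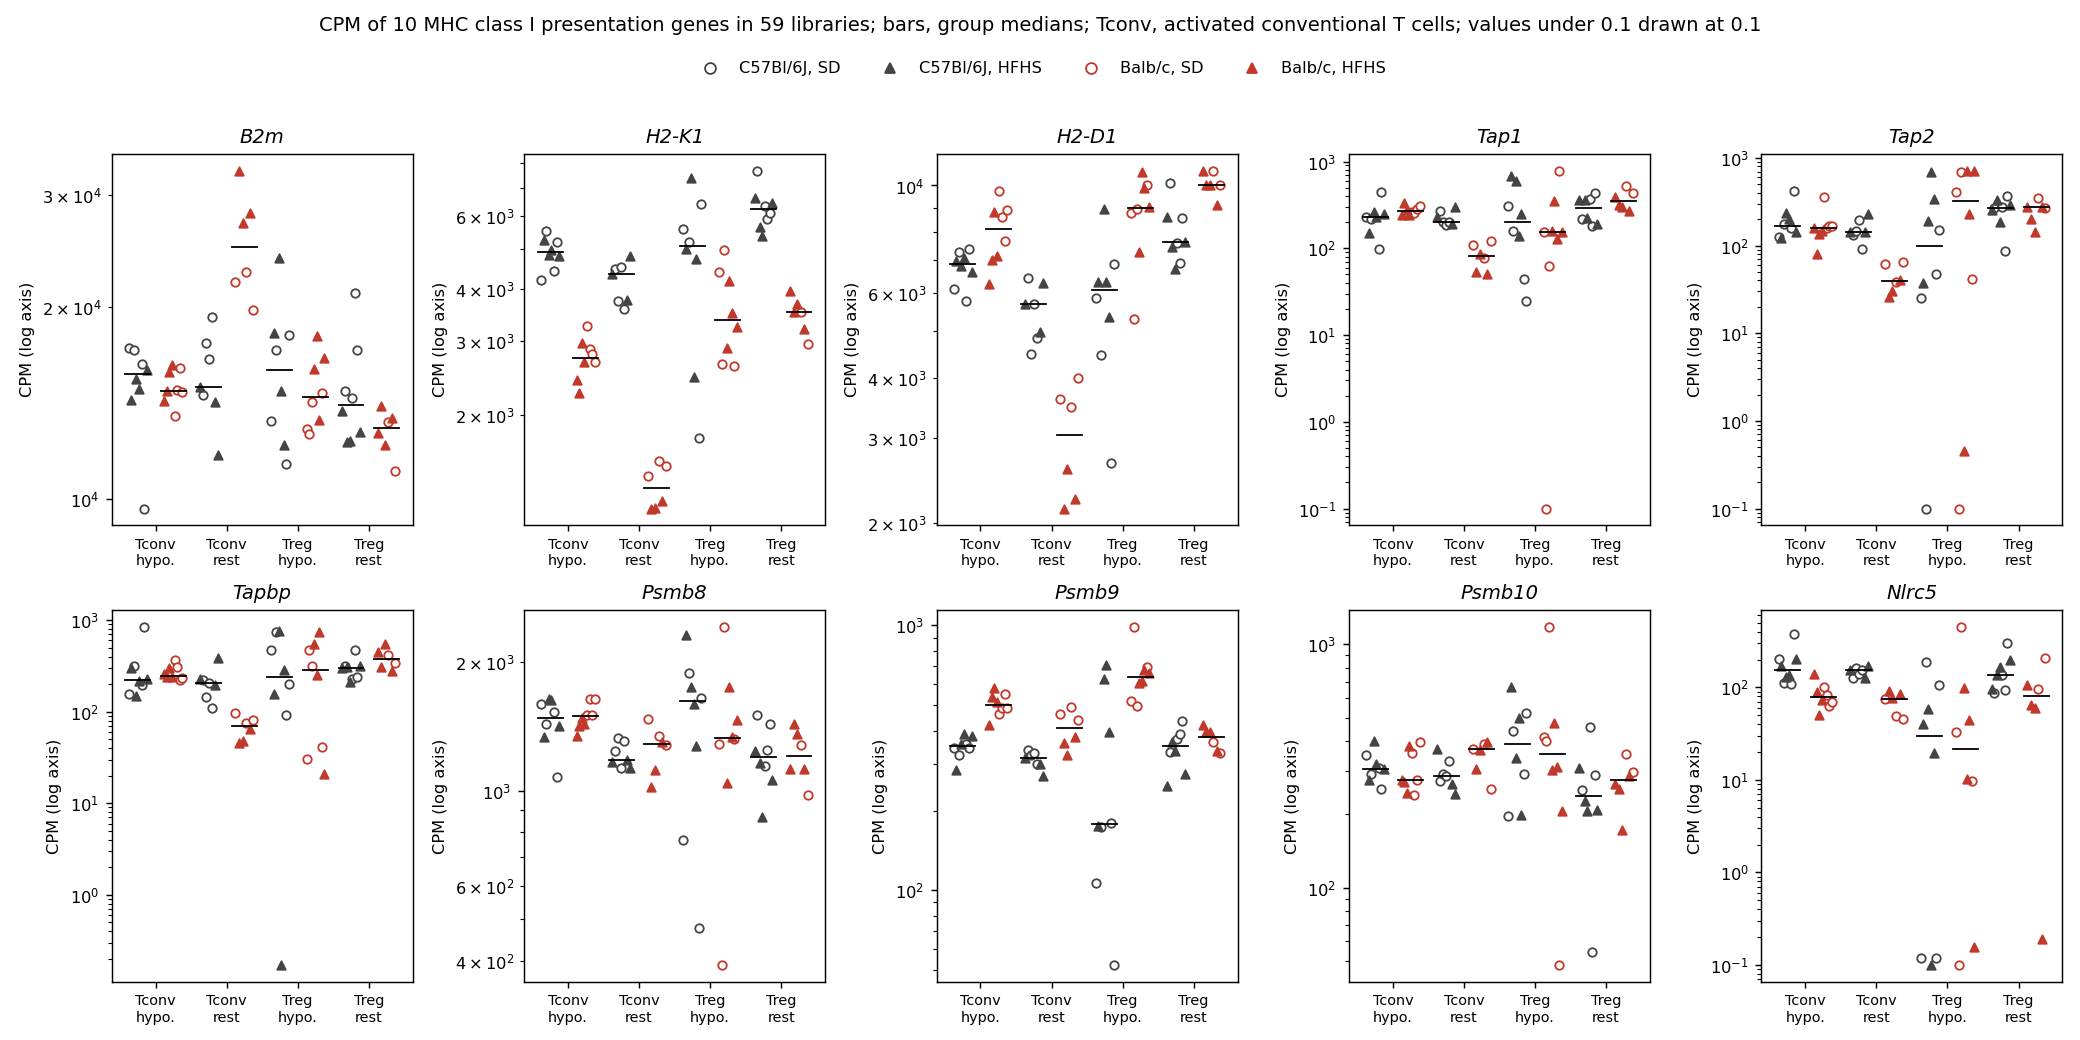
Level of each of the 10 genes (CPM, log axis) in the 59 libraries of the second experiment, by cell type, tissue and strain, with 1 point per library (open circles for SD, filled triangles for HFHS diet, dark for C57Bl/6J, red for Balb/c, values under 0.1 drawn at 0.1) and medians as bars. Points of activated Tconv lie close together for most genes, whereas hypothalamic Treg points of Tap1, Tap2, Tapbp and Nlrc5 spread down to values near 0.

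Spread between libraries differed between groups. In hypothalamic Tregs the coefficient of variation over 16 libraries was 95.9% for Tap1, 107.0% for Tap2, 84.3% for Tapbp and 173.2% for Nlrc5, whereas over all members in either activated Tconv group it was 9.9% to 66.5%. Hypothalamic Treg libraries also had fewer genes with more than 3 counts, 2370 to 10462, against 9373 to 10481 in hypothalamic activated Tconv. Both ends of the Treg range are the libraries that stood apart, 2370 in pool 32_36 and 10462 in pool 11_15. The other hypothalamic Treg libraries had 2557 to 7793, all below hypothalamic activated Tconv. Nlrc5 was at 3 counts or fewer in 5 of the 59 libraries, 4 of them hypothalamic Tregs, Tap2 in 2, Tap1 in 1 and Tapbp in 1.

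The strains were compared first for the heavy chains, since the 2 alleles and the mapping reference differ there. H2-K1 counted against the b allele was lower in Balb/c in both tissues. In hypothalamic activated Tconv the C57Bl/6J libraries held 4208, 4419, 5192 and 5503 CPM on SD and 4812, 4838, 4969 and 5253 CPM on HFHS diet. The Balb/c libraries held 2675, 2798, 2867 and 3266 CPM on SD and 2251, 2416, 2669.6 and 2969.7 CPM on HFHS diet. Every Balb/c library lay below every C57Bl/6J library. With diet as a covariate, H2-K1 was 1.81-fold lower in Balb/c (edgeR's quasi-likelihood test with Benjamini-Hochberg adjustment, log2 difference -0.85, SE 0.08, adjusted p = 1.642e-06). In activated Tconv of the rest of the brain it was 3581, 3753, 4475 and 4508 CPM on SD and 3773, 4343 and 4811 CPM on HFHS diet in C57Bl/6J, and 1428, 1506 and 1549 CPM and 1192, 1198 and 1246 CPM in Balb/c. It was 2.55-fold lower in Balb/c there by edgeR (log2 difference -1.35, SE 0.11, adjusted p = 2.347e-07), again without overlap. In Tregs of the rest of the brain C57Bl/6J libraries ranged from 5360.3 to 7682, with a median of 6207 CPM, and Balb/c libraries from 2956 to 3961, with a median of 3524 CPM. H2-K1 was the only member called there by edgeR (log2 difference -0.88, SE 0.09, adjusted p = 3.041e-05), against 0.3% of all 11679 genes, and the groups did not overlap, as for 0.788% of genes. With limma-voom and quality weights this call was lost (adjusted p = 0.8356).

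H2-D1, the other classical heavy chain of C57Bl/6J mice, was lower in Balb/c like H2-K1 only in activated Tconv of the rest of the brain. In hypothalamic activated Tconv it ranged from 5779 to 7387, with a median of 6891 CPM, in C57Bl/6J and from 6253 to 9736, with a median of 8148 CPM, in Balb/c, and the groups overlapped (edgeR's quasi-likelihood test with Benjamini-Hochberg adjustment, log2 difference 0.23, SE 0.09, adjusted p = 0.2983). In Tregs of the rest of the brain the ranges were 6724, 7638 and 10096 CPM (lowest, median, highest) in C57Bl/6J and 9102, 10036 and 10729 CPM in Balb/c. The difference did not pass there either (log2 difference 0.33, SE 0.08, adjusted p = 0.099), but it passed without the C57Bl/6J SD pool 62_66 (log2 difference 0.36, adjusted p = 0.02124). In activated Tconv of the rest of the brain H2-D1 was lower in Balb/c, at 2147, 3041 and 3989 CPM against 4482, 5689 and 6439 CPM (1.53-fold lower, log2 difference -0.61, SE 0.12, adjusted p = 0.0009931). As a share of the TPM of both heavy chains, H2-K1 took 42.3% to 44.8% in C57Bl/6J and 24.2% to 29.1% in Balb/c hypothalamic activated Tconv. The shares were 42.5% to 47.1% and 28.6% to 37.1% in activated Tconv of the rest of the brain, and 43.1% to 47.5% and 23.8% to 28.2% in its Tregs. The strains did not overlap in any of these 3 sets, whereas in hypothalamic Tregs shares of 29.3% to 55.2% in C57Bl/6J and 21.8% to 37.1% in Balb/c did.

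Counts on other class I heavy chain genes differed between strains in both directions. The list of 24 further heavy chain genes, counted here and in the comparisons below, includes the class I-like genes Cd1d1, Cd1d2 and Mr1. Of the list, 18 were tested in hypothalamic activated Tconv, where 2.1% of all 10848 genes were called. Of these, 5 were higher in Balb/c and 3 lower. H2-Q4 had a median of 219.6 CPM in Balb/c and 20.03 CPM in C57Bl/6J (log2 difference 3.38, adjusted p = 7.001e-10). H2-Q2 (32.1 against 0.336 CPM), H2-Q1 (38.4 against 1.85 CPM), H2-Q10 and H2-K2 were higher too, whereas H2-Q7 (163 against 498 CPM), H2-Q9 (504 against 1168 CPM) and H2-Q8 were lower. H2-T23, the non-classical Qa-1 heavy chain, had 837 and 755 CPM (log2 difference 0.07, adjusted p = 0.9703). In Tregs of the rest of the brain, H2-Q4 was again higher in Balb/c (269.7 against 24.8 CPM, log2 difference 3.32) and H2-Q7 and H2-Q9 were lower. Which of these reads came from H2-d genes without a counterpart in the reference was not tested. When the counts of 28 class I heavy chain genes were summed, hypothalamic activated Tconv held 13010.0 to 16243 CPM in C57Bl/6J and 10809 to 15990.0 CPM in Balb/c, and the ranges overlapped. This sum includes H2-K1 and H2-D1 but not H2-K2, Cd1d1, Cd1d2 or Mr1. In Tregs of the rest of the brain the sums were 15027 to 22202 CPM and 14784 to 17604 CPM. In activated Tconv of the rest of the brain they were 10993 to 14031 CPM and 4238 to 7114 CPM, without overlap.

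Outside the heavy chains, Psmb9 was higher and Nlrc5 was lower in Balb/c in hypothalamic activated Tconv, and the other 6 members were not called. Of the 10 members 3 were called between strains, 1 higher and 2 lower in Balb/c, against 2.1% of all genes (0.996% higher and 1.11% lower), and 2 did not overlap, against 1.33%. B2m ranged from 9655 to 17220.0, with a median of 15681 CPM, in C57Bl/6J and from 13482 to 16223, with a median of 14790.0 CPM, in Balb/c (edgeR's quasi-likelihood test with Benjamini-Hochberg adjustment, log2 difference -0.03, SE 0.11, adjusted p = 0.9948). Tap1 was at 98.7, 232 and 449.6 CPM (lowest, median, highest) in C57Bl/6J and 242, 268 and 334 CPM in Balb/c (log2 difference 0.23, SE 0.21, adjusted p = 0.8917). Neither gene was called, and both groups overlapped. The log2 difference was -0.23 for Tap2 (SE 0.24), -0.10 for Tapbp, 0.02 for Psmb8 and -0.05 for Psmb10. Psmb9, the subunit encoded beside Tap1, was higher in Balb/c, at 421, 501 and 582 CPM against 284, 351 and 389 CPM, with no overlap (1.44-fold, log2 difference 0.53, SE 0.10, adjusted p = 0.003538). Nlrc5 was lower in Balb/c, at 50.5, 78.3 and 139.8 CPM against 108, 154 and 374 CPM, and the groups overlapped (2.12-fold lower, log2 difference -1.09, SE 0.25, adjusted p = 0.02709). The Nlrc5 call was lost without any 1 of 6 libraries, with adjusted p of 0.05307 without the C57Bl/6J SD pool 43_47, 0.05781 without the C57Bl/6J HFHS pool 77_80, 0.05521 without the Balb/c HFHS pool 26_31, and 0.05245, 0.06528 and 0.05875 without the Balb/c SD pools 32_36, 42_46 and 06_10.

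In activated Tconv of the rest of the brain all 10 members were called between strains, 4 higher and 6 lower in Balb/c, where 23.6% of all 12259 genes were called (12.2% higher and 11.4% lower). Of the members, 7 did not overlap, against 12.4% of all genes. B2m was higher in Balb/c, at 19804, 24891 and 32736 CPM (lowest, median, highest) against 11703, 14971 and 19289 CPM (1.96-fold, edgeR, log2 difference 0.97, SE 0.18, adjusted p = 0.0007721). Peptide transport and loading genes were lower. Tap1 held 183, 199, 199 and 267 CPM on SD and 191, 229 and 297 CPM on HFHS diet in C57Bl/6J, and 76.9, 109.9 and 121 CPM and 49.9, 53.5 and 85.3 CPM in Balb/c (2.28-fold lower, log2 difference -1.19, SE 0.18, adjusted p = 0.0001329). Tap2 was at 26.05, 39.3 and 65.2 CPM in Balb/c against 92.1, 145 and 231 CPM, 3.0-fold lower (log2 difference -1.59, SE 0.23, adjusted p = 8.11e-05). Tapbp was at 45.8, 69.9 and 97.8 CPM against 111, 205 and 383 CPM (2.55-fold lower, log2 difference -1.35, SE 0.23, adjusted p = 0.0003212). No Balb/c library reached the lowest C57Bl/6J library for any of these 3 genes. Nlrc5 fell by 0.84 on the log2 scale, from 126, 153 and 169.9 CPM in C57Bl/6J to 45.1, 75.5 and 91.8 CPM in Balb/c (adjusted p = 0.005332). The immunoproteasome subunits were higher by 0.67 for Psmb9 (adjusted p = 0.0004178), 0.51 for Psmb10 (adjusted p = 0.03118) and 0.33 for Psmb8 (adjusted p = 0.04187), and all 3 overlapped between strains.

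The rest-of-brain strain differences moved with scaling and with an offset for GC content and length together. Of all genes called there, TMM scaling put 1496 higher and 1395 lower in Balb/c, and library totals put 1006 higher and 2075 lower, with a median over all genes of -0.03 and -0.30 on the log2 scale. With library totals 8 members were called, against 25.1% of all genes, and Psmb8 (log2 difference 0.06, adjusted p = 0.6711) and Psmb10 (0.24, adjusted p = 0.2242) were not. The median log2 difference over all genes by transcript length was 0.95 for 954 genes under 1000 bases and -0.43 for 2747 genes of 2000 to 3000 bases. In the hypothalamus these medians were 0.03 over 889 genes and 0.02 over 2538 genes. B2m, with 858 bases, and Tap1, Tap2 and Tapbp, with 2490 to 2945 bases, fall in these classes. B2m also differs in GC content, with 41.2% against 52.5% to 57.1% in the other members, and the parts of length and of GC content were not told apart. Salmon's effective lengths, taken over transcripts above 5000 bases, gave sequenced fragments with median lengths of 217.6 and 220.2 bases in the Balb/c HFHS and SD groups and 233.0 and 230.1 bases in the C57Bl/6J groups. With this offset, an alternative chosen after seeing the data, 4 members were called, against 13.9% of all genes. H2-K1 (log2 difference -0.99, adjusted p = 5.307e-07) and Tap2 (-0.67, adjusted p = 0.02293) were lower and Psmb10 was higher (0.59, adjusted p = 0.008641), whereas B2m turned to lower (-0.28, adjusted p = 0.002895). Tap1 (-0.29, adjusted p = 0.1433), Tapbp (-0.36, adjusted p = 0.1936) and H2-D1 (adjusted p = 0.4239) were then not called, nor were Nlrc5 (-0.47, adjusted p = 0.1923), Psmb9 (0.13, adjusted p = 0.4625) and Psmb8 (0.13, adjusted p = 0.2394). The 2 CD8 genes Cd8a and Cd8b1 summed to 276 to 479 CPM in Balb/c and 1.94 to 736 CPM in C57Bl/6J, and the 6 microglial genes to 82.4 to 658 CPM and 68.9 to 111 CPM. The 5 macrophage or monocyte genes summed to 238 to 384 CPM and 117 to 302 CPM, the 3 oligodendrocyte genes to 53.7 to 466 CPM and 40.5 to 160.3 CPM, and the 3 neuronal genes to 0.104 to 89.0 CPM and 0 to 2.38 CPM. Of those tested 2 of 3, 1 of 2 and 1 of 1 were called higher in Balb/c, as were 2 of 5 microglial and 1 of 2 CD8 genes, and of 5 T-cell genes 2 were higher and 2 lower. The part of any of these in the differences was not tested. The Psmb10 call was lost without any 1 of 8 libraries, namely the C57Bl/6J SD pool 67_71, the C57Bl/6J HFHS pools 77_80 and 33_37 and the Balb/c pools 37_41, 47_25, 15_21, 32_36 and 16_20, with adjusted p of 0.05288 to 0.1095. The Psmb8 call was lost without any of these or the C57Bl/6J pools 38_42 and 62_66, with adjusted p of 0.06747 to 0.1874.

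**Figure D2:**
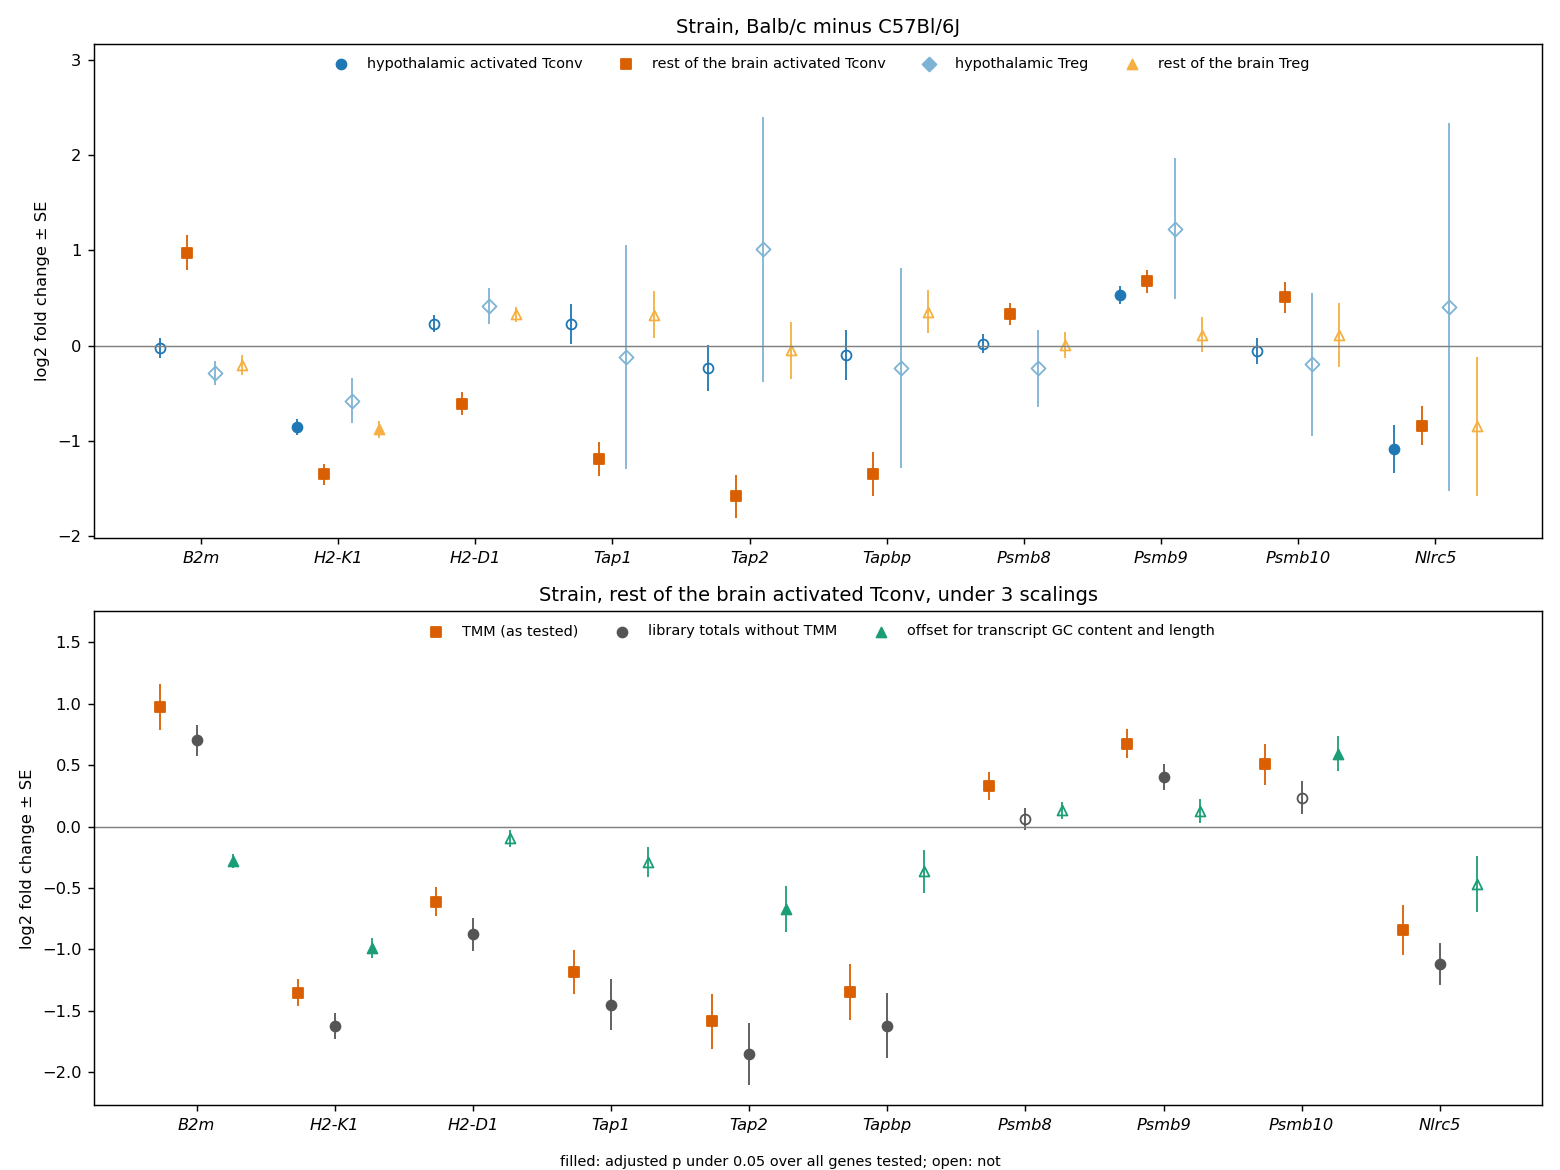
Log2 difference between strains (Balb/c minus C57Bl/6J) of each gene with its standard error from edgeR, filled where the adjusted p was under 0.05. The upper panel shows both cell types in both tissues and the lower panel activated Tconv of the rest of the brain under 3 scalings. H2-K1 is below 0 throughout, and B2m changes side with the offset for GC content and length.

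The other genes of the pathway were counted in the same comparison. In hypothalamic activated Tconv none of 12 loading and trimming genes, 4 proteasome activator genes or 13 class I regulators were called between strains. Irf1 (log2 difference -0.06), which carries the interferon signal to these promoters, was not called, and the interferon-γ receptor chain Ifngr1 was lower in Balb/c (751 against 1392 CPM, log2 difference -1.03, adjusted p = 0.0008733). In the rest of the brain, 5 of 12 loading genes were lower and 1 was higher in Balb/c, where 23.6% of all genes were called. The lists for the rest of the brain are from TMM scaling. They are not given with the offset for GC content and length, with which 13.9% of all genes were called. The tapasin-related Tapbpl (log2 difference -2.16), the translocon subunit Sec61a1 (-1.24) and the oxidoreductase Pdia3 (-0.49) were lower, and calnexin (Canx, 1.15) was higher. The proteasome activator subunits Psme2 (0.84) and Psme1 (0.48) and the constitutive subunits Psmb7 (0.98) and Psmb6 (0.72) were higher. Of 13 regulators 3 were called, all lower, among them Rela (-1.58) and Irf1 (-0.64). Of 7 genes of interferon-γ signalling 3 were called, all lower in Balb/c, namely Ifngr1 (-0.73), the receptor-bound kinase Jak1 (-0.39) and the inhibitor Socs3 (-1.55), where 11.4% of all genes were lower. Ifng itself was not called and had medians of 556 and 507 CPM (log2 difference 0.69, adjusted p = 0.05515), and Rfx5 and Ciita were not called.

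In hypothalamic Tregs no member was called between strains by edgeR, where 0.0389% of all 7709 genes were. An unadjusted p under 0.05 was reached by 3 members, H2-K1 (log2 difference -0.58, SE 0.23), B2m (-0.29, SE 0.13) and H2-D1 (0.42, SE 0.19), each with an adjusted p of 1. DESeq2 and limma-voom called 0 members as well, against 3.24% and 0.169% of all genes. H2-K1 was at 1757, 5079 and 7389 CPM in C57Bl/6J and 2619, 3371 and 4955 CPM in Balb/c, with overlap. The lowest C57Bl/6J value was that of pool 11_15. No member was called without both libraries that stood apart either. Tap2 ranged from 0 to 695 CPM in C57Bl/6J and from 0 to 715 CPM in Balb/c (log2 difference 1.01, SE 1.39).

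Tissues were compared within each cell type, with strain and diet as covariates. In activated Tconv, heavy chain, transporter and tapasin genes were higher in the hypothalamus than in the rest of the brain and B2m was lower. Of the 10 members 6 were called, 5 higher and 1 lower, against 16.9% of all 12803 genes (5.69% higher and 11.3% lower), and the members' median log2 difference was 0.34 against -0.09 over all genes. H2-D1 was at 5779, 7128 and 9736 CPM (lowest, median, highest of 16) in the hypothalamus and 2147, 4482 and 6439 CPM (of 13) in the rest of the brain (1.68-fold, edgeR, log2 difference 0.75, SE 0.11, adjusted p = 7.405e-05). H2-K1 was at 2251, 3737 and 5503 CPM and 1192, 3581 and 4811 CPM (1.42-fold, log2 difference 0.51, SE 0.08, adjusted p = 0.0001407). Both ranges overlapped, as did those of every member, and only 0.0312% of all genes did not overlap. Tap2 (81.0, 159.7 and 421 against 26.05, 92.1 and 231 CPM) rose 2.01-fold and Tapbp (149, 237 and 842 against 45.8, 111 and 383 CPM) 2.11-fold, with adjusted p of 0.00172 and 0.001267. Tap1 rose by 0.77 on the log2 scale (adjusted p = 0.006558). B2m fell by 0.51, from 11703, 19289 and 32736 CPM in the rest of the brain to 9655, 15137 and 17220.0 CPM in the hypothalamus (adjusted p = 0.008878). Psmb8 (0.16), Psmb9 (0.14), Psmb10 (-0.15) and Nlrc5 (0.15) were not called. Psmb8 passed without the C57Bl/6J SD pool 11_15 (adjusted p = 0.03224), with a filter of more than 10 counts in total (0.04983), with library totals (0.005629) and with the offset for GC content and length (0.006781). Psmb9 passed with library totals (0.02728) and with the offset (0.003238), and Psmb10 was lower in Balb/c alone (log2 difference -0.48, adjusted p = 0.0316). The 6 microglial genes summed to 57.4 to 222 CPM in the hypothalamus and 68.9 to 658 CPM in the rest of the brain, and the 2 CD8 genes to 8.69 to 619 CPM and 1.94 to 736 CPM. Of the marker genes tested, 3 of 5 microglial, 1 of 3 macrophage or monocyte, 1 of 2 B-cell, 1 of 1 astrocyte, 1 of 2 oligodendrocyte, 1 of 1 neuronal and 1 of 4 Treg genes were called, all lower in the hypothalamus. Of 9 MHC class II genes 1 was lower there too, and of 5 T-cell genes 1 was higher and 2 were lower. The part of any of these in the differences was not tested.

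The strains differed in these tissue differences. In Balb/c alone 7 members were called, against 25.6% of all 11786 genes, and in C57Bl/6J alone none, with 1 gene called of all 11458 tested (0.00873%). Tap2, for example, stood at 1.70 (SE 0.23) in Balb/c and 0.36 (SE 0.24) in C57Bl/6J. The difference between strains was tested as an interaction term, added after seeing the data, which was significant for 10.4% of all genes and for 6 members. The tissue difference was larger in Balb/c by 1.45 for Tap1 (edgeR, SE 0.28, adjusted p = 0.001311), 1.40 for Tap2 (adjusted p = 0.006877), 1.29 for Tapbp (adjusted p = 0.02335), 0.87 for H2-D1 (adjusted p = 0.0002681) and 0.53 for H2-K1 (adjusted p = 0.003586). For B2m the interaction was -0.98 (SE 0.20, adjusted p = 0.00218). Psmb8, Psmb9, Psmb10 and Nlrc5 had adjusted p of 0.1079 to 0.7773. These interactions use the same rest-of-brain Balb/c libraries as the strain comparison, and they were not refitted with the offset for GC content and length. In the tissue comparison the median log2 difference was -0.48 over 1013 genes under 1000 bases and 0.15 over 2872 genes of 2000 to 3000 bases, and with the offset for GC content and length B2m turned to higher in the hypothalamus (0.19, adjusted p = 0.004755) and Tap1 was not called (adjusted p = 0.204). Libraries of both tissues share pool labels. With the pool as a replicate block, 18 libraries of 9 pools remained and no member was called by edgeR, against 33 called among all genes (0.253%), with adjusted p of 0.05135 for H2-D1, 0.05504 for H2-K1, 0.05141 for Tap2 and Tapbp, 0.06108 for Tap1 and 0.164 for B2m. The same 18 libraries without the pool term gave 5 members, against 13.3% of all genes.

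In Tregs no member was called between tissues, where 4.92% of all 12571 genes were, and 1 member had an unadjusted p under 0.05. DESeq2 called 0 members and limma-voom called 2, against 9.49% and 37.5% of all genes. These were B2m (limma-voom, 0.27, adjusted p = 0.01017) and Nlrc5 (-2.92, adjusted p = 0.0338). The member with the lowest p by edgeR was H2-D1, at 2668, 7085 and 10642 CPM in the hypothalamus and 6724, 8858 and 10729 CPM in the rest of the brain (edgeR, log2 difference -0.32, SE 0.12, adjusted p = 0.1535). It passed without the Balb/c SD pool 37_41 (log2 difference -0.40, adjusted p = 0.03936), the Balb/c SD pool 42_46 (-0.42, adjusted p = 0.03005) or the C57Bl/6J SD pool 62_66 (-0.39, adjusted p = 0.03356). No member was called without both libraries that stood apart. Nlrc5 had medians of 26.02 CPM in hypothalamic and 101 CPM in rest-of-brain Tregs, but ranged from 0 to 449.7 CPM in the former. The interaction of tissue and strain was called for 8.63% of all genes and for no member.

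Other heavy chain genes were called in the same direction as H2-K1 and H2-D1 between tissues in activated Tconv. Of 19 tested, 10 were higher in the hypothalamus and none lower, where 5.69% of all genes were higher and 11.3% lower. These counts are from both strains in 1 fit without the pool term. In C57Bl/6J alone 1 gene, and with the pool as a block 33 genes, were called over all genes. H2-Q2 (log2 difference 2.17), H2-Q1 (1.60), H2-Q6 (1.48) and H2-Q10 (1.05) differed most, and H2-T23 was higher by 0.39. In C57Bl/6J the medians of H2-Q2 were 0.336 CPM in the hypothalamus and 0.175 CPM in the rest of the brain, against 32.1 and 6.93 CPM in Balb/c. Those of H2-Q1 were 1.85 and 0.582 CPM, against 38.4 and 9.99 CPM. Of 12 loading genes 5 were higher, among them Tapbpl (1.29) and calreticulin (Calr, 0.39), which holds the heavy chain during loading. Of 13 regulators 1 was higher (Rela, 0.89). Irf1 (0.34, adjusted p = 0.156) was not called. Of the interferon-γ axis Socs3 (0.98) and Socs1 (0.54), feedback inhibitors of cytokine signalling, were higher. Psmb7 (-0.51) and the proteasome maturation factor Pomp (-0.35) were lower.

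Tregs were compared with activated Tconv within each tissue. In the rest of the brain, Tregs held more heavy chain, transporter and tapasin RNA and less B2m RNA. Of the members 6 were called, 5 of them higher in Tregs, against 14.9% of all 13921 genes called, 4.37% higher and 10.5% lower. The members' median log2 difference was 0.51 against -0.20 over all genes. H2-D1 was at 6724, 8858 and 10729 CPM (lowest, median, highest of 14) in Tregs and 2147, 4482 and 6439 CPM (of 13) in activated Tconv. The groups did not overlap, as for 0.603% of all genes, and the difference was 2.08-fold (edgeR, log2 difference 1.05, SE 0.13, adjusted p = 1.139e-06). H2-K1 was at 2956, 5492 and 7682 CPM and 1192, 3581 and 4811 CPM (1.86-fold, log2 difference 0.89, SE 0.09, adjusted p = 1.876e-08). Tap1 was at 181, 335 and 516 CPM in Tregs against 49.9, 183 and 297 CPM (2.22-fold, log2 difference 1.15, SE 0.24, adjusted p = 0.001155). These groups overlapped, and Tap2 (2.84-fold, adjusted p = 0.0002911) and Tapbp (log2 difference 1.32, adjusted p = 0.0006681) followed with overlap. B2m was at 11049, 13299 and 21045 CPM in Tregs and 11703, 19289 and 32736 CPM in activated Tconv (log2 difference -0.52, SE 0.14, adjusted p = 0.007558). The immunoproteasome subunits Psmb8 (-0.04), Psmb9 (0.01) and Psmb10 (-0.32) and Nlrc5 (0.12) were not called. In C57Bl/6J alone 2 members were called, H2-K1 and H2-D1, against 3.63% of all 11441 genes, and in Balb/c alone 8, against 18.6% of all 12932 genes. The log2 difference of Tap2 was 2.38 (SE 0.25, adjusted p = 1.652e-05) in Balb/c and 0.75 (SE 0.28, adjusted p = 0.1956) in C57Bl/6J, and that of B2m -1.33 (SE 0.13) and -0.03 (SE 0.08). Whether the strains differ in this was not tested. With limma-voom the B2m call was lost (adjusted p = 0.2442). The offset for GC content and length was not run for this comparison, which uses the same rest-of-brain Balb/c activated Tconv libraries as the strain comparison.

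In the same comparison 8 of 19 other heavy chain genes were higher in Tregs and none lower, where 4.37% of all genes were higher and 10.5% lower. H2-Q2 (log2 difference 3.15), H2-Q1 (2.18), H2-Q6 (1.90) and H2-Q4 (1.35) differed most, and H2-T23 was higher by 0.56. The first 2 were near 0 in C57Bl/6J. H2-Q2 had medians of 0.473 CPM in Tregs and 0.175 CPM in activated Tconv there, against 43.8 and 6.93 CPM in Balb/c. H2-Q1 had 2.45 and 0.582 CPM, against 50.1 and 9.99 CPM. These counts of heavy chain genes are from both strains in 1 fit and are not given by strain. Tapbpl (1.74), Calr (0.51) and Pdia3 (0.49) were the 3 of 12 loading genes called, all higher. Of 13 regulators 2 were called, both higher, among them Rela (1.18), and Irf1 was not called (0.80, adjusted p = 0.2697). Of 7 genes of the interferon-γ axis 1 was higher and 2 were lower. Ifng fell by 4.05, from a median of 529 CPM in activated Tconv to 16.3 CPM in Tregs (adjusted p = 0.001921), whereas its receptor chain Ifngr1 was higher in Tregs (0.66) and the kinase Jak2 was lower (-1.33). The CD8 genes summed to 0.0598 to 78.5 CPM in Treg libraries of the rest of the brain against 1.94 to 736 CPM in activated Tconv, and the 6 microglial genes to 54.9 to 326 CPM against 68.9 to 658 CPM. Of the marker genes tested, 2 of 2 astrocyte genes were lower in Tregs, 2 of 2 erythroid and 1 of 1 endothelial genes were higher, 2 of 6 microglial genes were lower and 1 higher, 2 of 2 CD8 genes were lower and 1 of 5 T-cell genes was lower. The part of any of these was not tested.

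In the hypothalamus no member was called between Tregs and activated Tconv, where 7.72% of all 11254 genes were called, and no member had an unadjusted p under 0.05 by edgeR. DESeq2 called 0 members and limma-voom called 1, against 14.2% and 65.0% of all genes. It was Nlrc5 (limma-voom, log2 difference -3.80, adjusted p = 0.0004861). B2m was at 11338, 14694 and 23855 CPM in Tregs and 9655, 15137 and 17220.0 CPM in activated Tconv (log2 difference 0.03, SE 0.08). H2-K1 was at 1757, 4293 and 7389 CPM and 2251, 3737 and 5503 CPM (0.16, SE 0.13). These 2 genes were measured closely, whereas Tap1 (-0.07, SE 0.52), Tap2 (0.37, SE 0.75) and Nlrc5 (-1.23, SE 0.89) were not. No member was called without both libraries that stood apart. Of the other lists, none of 20 heavy chain genes, 12 loading genes, 4 proteasome activator genes and 13 class I regulators tested was called either. Whether the cell-type difference itself differs between tissues was not tested.

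**Figure D3:**
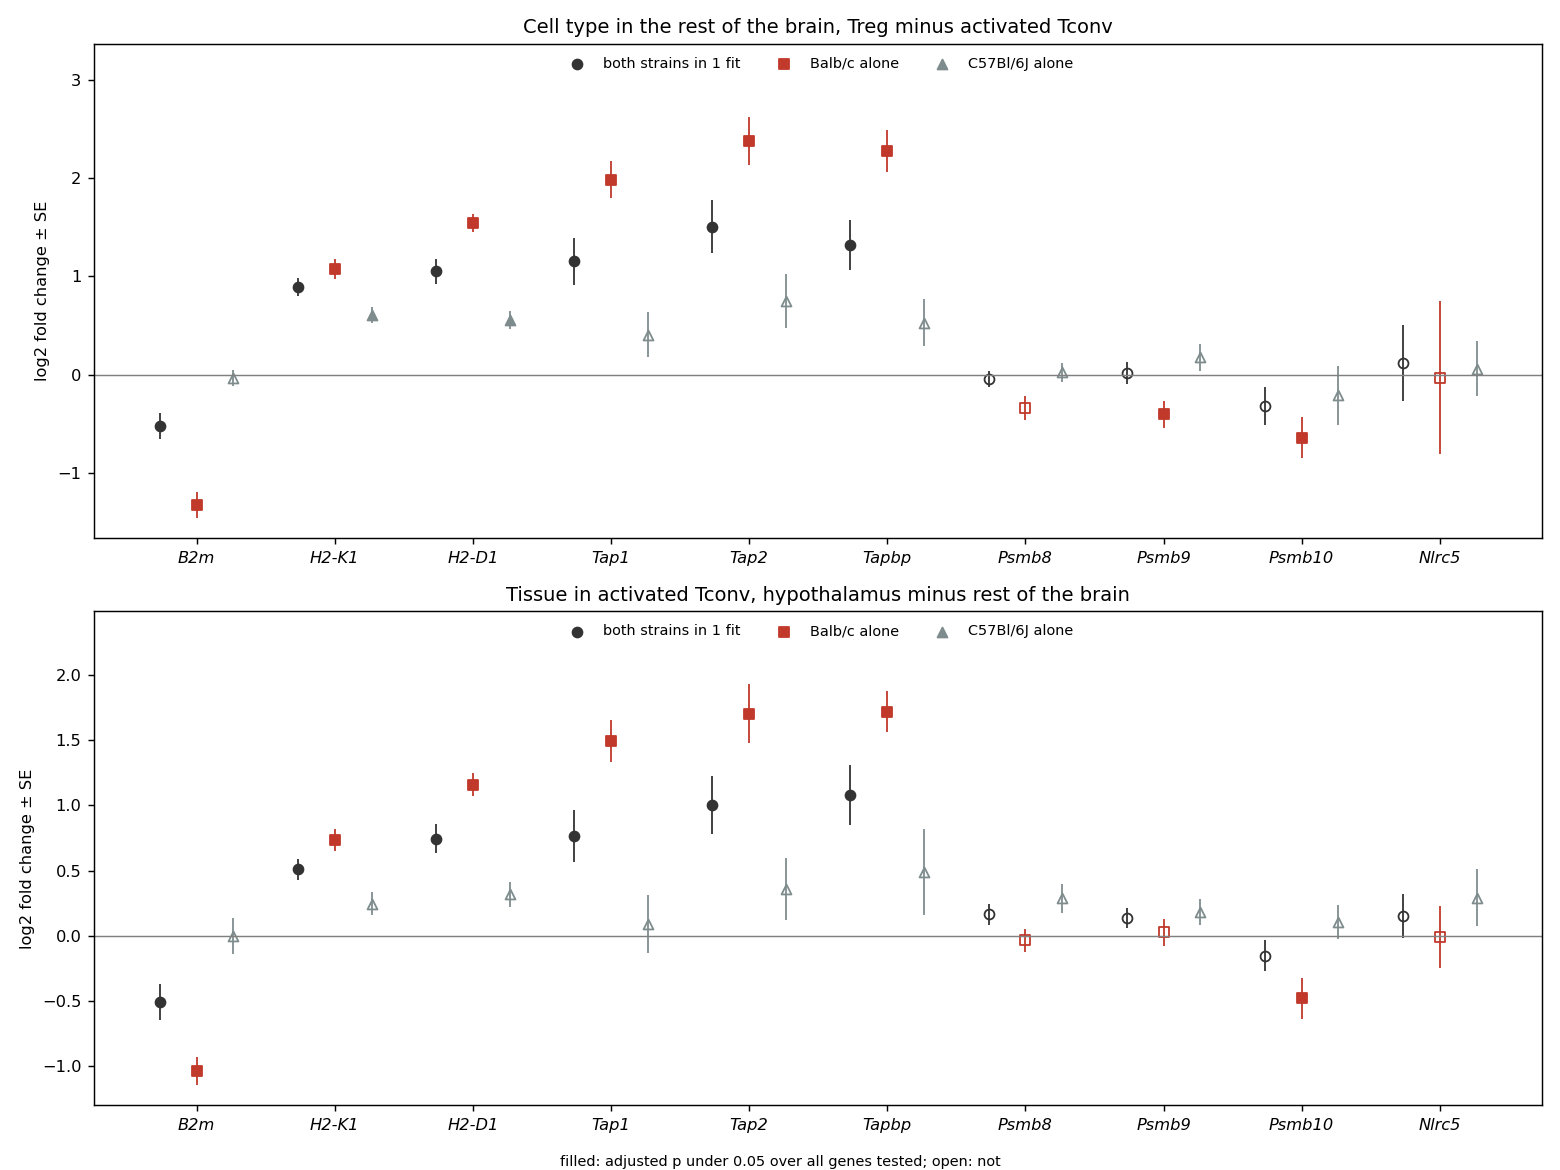
Log2 difference of each gene with its standard error from edgeR, between cell types in the rest of the brain (Treg minus activated Tconv, upper panel) and between tissues in activated Tconv (hypothalamus minus rest of the brain, lower panel), for both strains in 1 fit, Balb/c alone and C57Bl/6J alone, filled where the adjusted p was under 0.05. In Balb/c alone the tissue difference of Tap1, Tap2 and Tapbp in activated Tconv is above 0 and filled, and in C57Bl/6J alone no point of that comparison is filled.

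Diet was compared within each cell type and tissue, with strain as a covariate, and no member was called in any of the 4 comparisons by edgeR. The background was 0.0% of all genes in each. At an unadjusted p under 0.05, 405 genes of hypothalamic activated Tconv, 594 of rest-of-brain activated Tconv, 213 of hypothalamic Tregs and 850 of rest-of-brain Tregs passed, and DESeq2 called 15, 12, 182 and 326 genes but 0 members. In hypothalamic activated Tconv B2m was at 14258, 15137 and 16223 CPM (lowest, median, highest of 8) on HFHS diet and 9655, 15428 and 17220.0 CPM on SD (log2 difference 0.05, SE 0.11). H2-K1 was at 2251, 3891 and 5253 CPM and 2675, 3737 and 5503 CPM (-0.04, SE 0.08). Both pairs of ranges overlapped, each holding both strains. H2-D1 (-0.07, SE 0.09), Psmb8 (-0.002, SE 0.10), Psmb9 (0.07, SE 0.10) and Psmb10 (0.02, SE 0.14) had differences of less than 1 SE of 0, and Tap1 (-0.05, SE 0.21) and Nlrc5 (-0.04, SE 0.25) likewise.

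The member with the lowest p on diet in the hypothalamus was Tap2 (unadjusted p = 0.06967, adjusted p = 1). In Balb/c its values were 81.0, 137, 148 and 159.6 CPM on HFHS diet and 159.9, 166, 169 and 354 CPM on SD. In C57Bl/6J they were 122, 143, 199.7 and 234 CPM on HFHS diet and 126, 159, 177 and 421 CPM on SD. Every Balb/c HFHS library lay below every Balb/c SD library, the nearest pair being 159.6 and 159.9 CPM, whereas the diets overlapped in C57Bl/6J. Over both strains the log2 difference was -0.47 (SE 0.24), with -0.65 (SE 0.29, edgeR adjusted p = 1) in Balb/c alone and -0.29 (SE 0.36) in C57Bl/6J alone. In Balb/c 3.6% of all genes had no overlap between diets, and Psmb8 was the other such member, at 1347, 1420.3, 1433 and 1480.1 CPM on HFHS diet and 1508, 1508, 1640.0 and 1643 CPM on SD (-0.12, SE 0.09). Tapbp was at 237, 238, 258 and 301 CPM and 223, 232, 306 and 367 CPM in Balb/c, and 149, 218, 226 and 299 CPM and 155, 195, 315 and 842 CPM in C57Bl/6J, on HFHS diet and SD in turn (-0.39, SE 0.27). Here too 1 C57Bl/6J SD library, pool 11_15, was far above the rest. Without it the difference was -0.05 for Tapbp and -0.28 for Tap2. In C57Bl/6J the diets overlapped for every member, and did not for 2.32% of all genes.

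In activated Tconv of the rest of the brain the differences between diets ranged from -0.19 for H2-D1 (SE 0.12) to 0.37 for Nlrc5 (SE 0.20, unadjusted p = 0.08354). The closest to 0 was H2-K1, at -0.02 (SE 0.11). Within Balb/c, where each diet had 3 libraries, 6 members did not overlap between diets, against 20% of all genes. These are the Balb/c libraries of the strain comparison, where B2m turned with the offset for GC content and length. That offset was not run for diet within Balb/c. B2m was at 27100.0, 28051 and 32736 CPM on HFHS diet and 19804, 21921 and 22682 CPM on SD (log2 difference 0.66, SE 0.12, edgeR adjusted p = 0.07425). Nlrc5 was also above, whereas H2-K1, H2-D1, Tapbp and Psmb9 were below on HFHS diet in CPM, with H2-D1 at 2147, 2243 and 2596 CPM against 3486, 3616 and 3989 CPM (-0.45, SE 0.12, adjusted p = 0.1226). For H2-K1 the fitted log2 difference stayed between -0.098 and 0.137 over all fits of this diet comparison, Balb/c alone included. In C57Bl/6J, with 3 libraries on HFHS diet and 4 on SD, every member overlapped, whereas 6.29% of all genes did not, and B2m stood at -0.38 (SE 0.14, adjusted p = 1). No member was called within either strain.

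In Tregs of the rest of the brain all 10 differences between diets were below 0 but none was called, and the same control libraries enter all of them. B2m was at 12160.0, 12686 and 13966 CPM on HFHS diet and 11049, 14569 and 21045 CPM on SD (log2 difference -0.23, SE 0.10, unadjusted p = 0.03714, edgeR adjusted p = 0.5869). Limma-voom called 2 members there, against 0.137% of all genes, B2m in the other direction (0.27, adjusted p = 8.668e-24) and H2-K1 (-0.21, adjusted p = 5.148e-06). The voom direction of B2m is opposite to that of the CPM medians above. Why voom differed was not tested, and its small p-value is not read as a diet difference. Within C57Bl/6J B2m was at 12262, 12342, 12709 and 13718 CPM on HFHS diet and 14384, 14754, 17107 and 21045 CPM on SD, without overlap, as for 3.95% of all genes (edgeR log2 difference -0.39, SE 0.12, adjusted p = 0.9201). In Balb/c, whose SD group held only 2 libraries, Tap1 and Psmb10 did not overlap, against 13.9% of all genes, and B2m did. In hypothalamic Tregs the differences ran from -1.55 for Nlrc5 (SE 1.97) to 1.61 for Tap2 (SE 1.41), whereas B2m (0.18, SE 0.13) and H2-K1 (-0.06, SE 0.23) had narrow errors. No member was called without both libraries that stood apart. None of the other pathway lists had a gene called by diet. Whether the response to diet differs between strains was not tested.

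**Figure D4:**
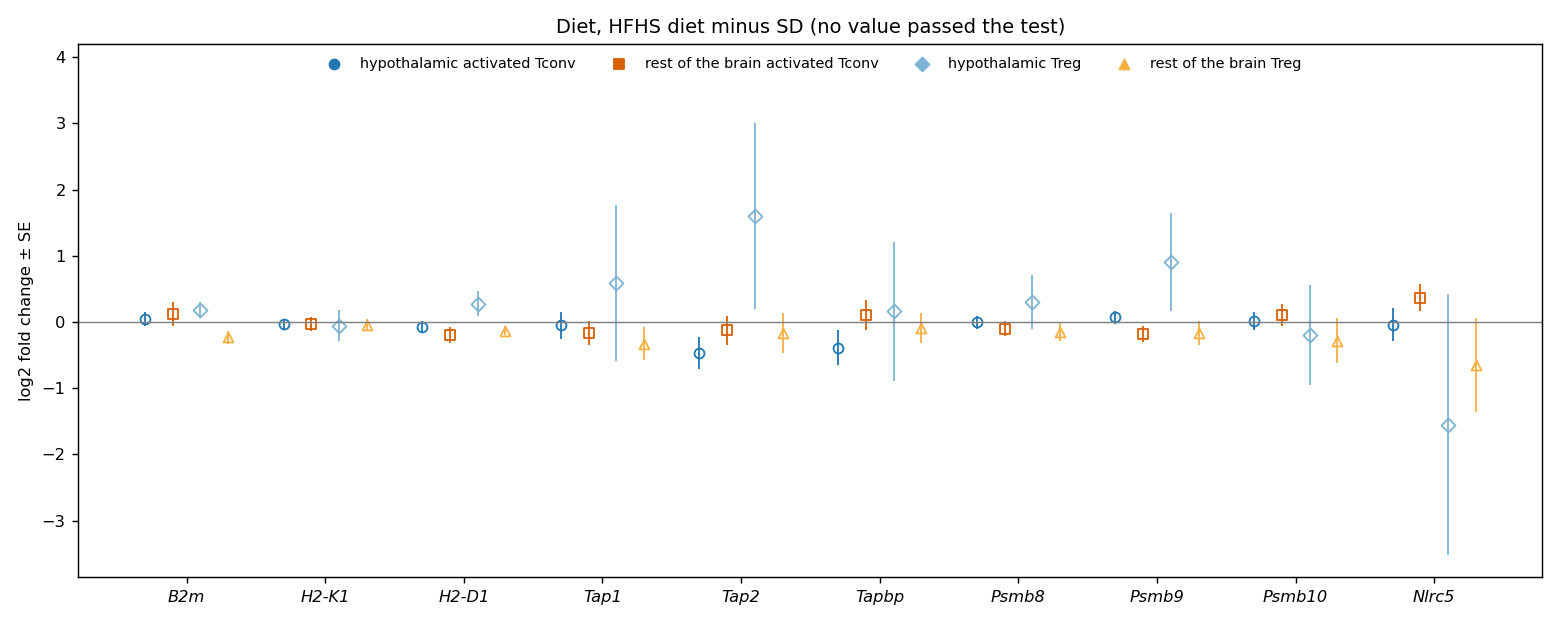
Log2 difference between diets (HFHS minus SD) of each gene with its standard error from edgeR, in both cell types and both tissues of the second experiment. No point is filled, which would mark an adjusted p under 0.05, and the errors of hypothalamic Tregs are the widest for Nlrc5, Tap2 and Tap1.

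The pilot experiment had 1 library per condition, so it gave ratios between libraries with no replicate check. Values are reads divided by the library's size factor, and a gene counted as past 2-fold with more than 20 such reads in at least 1 library. In CD4+ T cells of Foxp3GFP Balb/c mice, 9 of 10 members were past 2-fold between HFHS and regular diet, where 61.9% of all 6686 genes were. B2m had 37727 reads on HFHS and 16789 on regular diet (2.25-fold), and Nlrc5 had 331 and 106 (3.11-fold). These were the 2 members with more reads on HFHS diet. The other 7 had fewer, among them H2-K1 (758 against 1950.0), Tap1 (52.7 against 190.4), Tap2 (9.54 against 106) and Psmb8 (103 against 673). H2-D1 stayed within 2-fold (1233 against 2119). The members' median log2 ratio was -1.73 against -0.24 over all genes. In the second experiment, which sorted activated CD44hi cells, the same 10 genes were not called between diets, and the gates differ.

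In pilot Tregs 6 members were past 2-fold between diets, where 80.5% of all 5445 genes were. Tap1 had 154 reads on HFHS diet and 27.5 on regular diet (5.58-fold). Psmb10 (3 raw reads against 269, ratio 0.00928, 95% counting interval 0.00190 to 0.0274) and Nlrc5 (18 against 317, ratio 0.0473) had few reads on HFHS diet. Tap1 and Nlrc5 lay on the other side in CD4+ T cells, with ratios of 0.277 and 3.11. B2m (1.43-fold), H2-K1 (0.846), H2-D1 (0.803) and Tapbp (1.41) were within 2-fold. Raw Foxp3 reads were 241 in the regular CD4+ library, 3 in the HFHS CD4+ library, 93 in the regular Treg library and 184 in the HFHS Treg library, or 64.3, 1.36, 64.0 and 105.5 normalized reads, so the 2 libraries labelled regular-diet CD4+ T cells and Tregs held close levels of Foxp3. Its part in the differences of either pair was not tested. Intervals cover counting error only.

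Against WT, CD4+ T cells of ob/ob mice had 6 members past 2-fold, where 85.8% of all 6440 genes were. Tap1, Psmb9, Psmb10 and Nlrc5 had 0 reads in the WT library, which held 220336 reads on genes, and were at least 7.14-fold, 36.3-fold, 20.4-fold and 7.14-fold higher in the ob/ob library against a floor of 3 reads per library. H2-D1 (1091 against 3184 normalized reads) and Tapbp (74.0 against 186) were lower, and B2m (26451 against 20743) and H2-K1 (1294 against 1169) were within 2-fold. Foxp3 had 24.3 normalized reads in ob/ob and 260.7 in WT (48 and 66 raw reads), and its part in these differences was not tested. The library labelled WT CD25hi Tregs held 99908 reads of P2ry12, a microglial gene, and 0 of Cd4. Values set against it compare unlike cells by these markers. Of 8 members with enough reads there, 6 were past 2-fold, against 79.3% of all 5901 genes, and the ob/ob library of that pair held 99925 reads on genes. Examples are H2-K1 (3159.5 against 582) and Psmb8 (539.8 against 5.59), both with more reads in ob/ob. Psmb9 rested on 5 and 2 raw reads (ratio 39.1, interval 6.39 to 410.1) and Tap2 on 1 and 85 (ratio 0.184, interval 0.00460 to 1.05). Tap1 and Nlrc5 had 0 reads in both libraries.

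**Figure D5:**
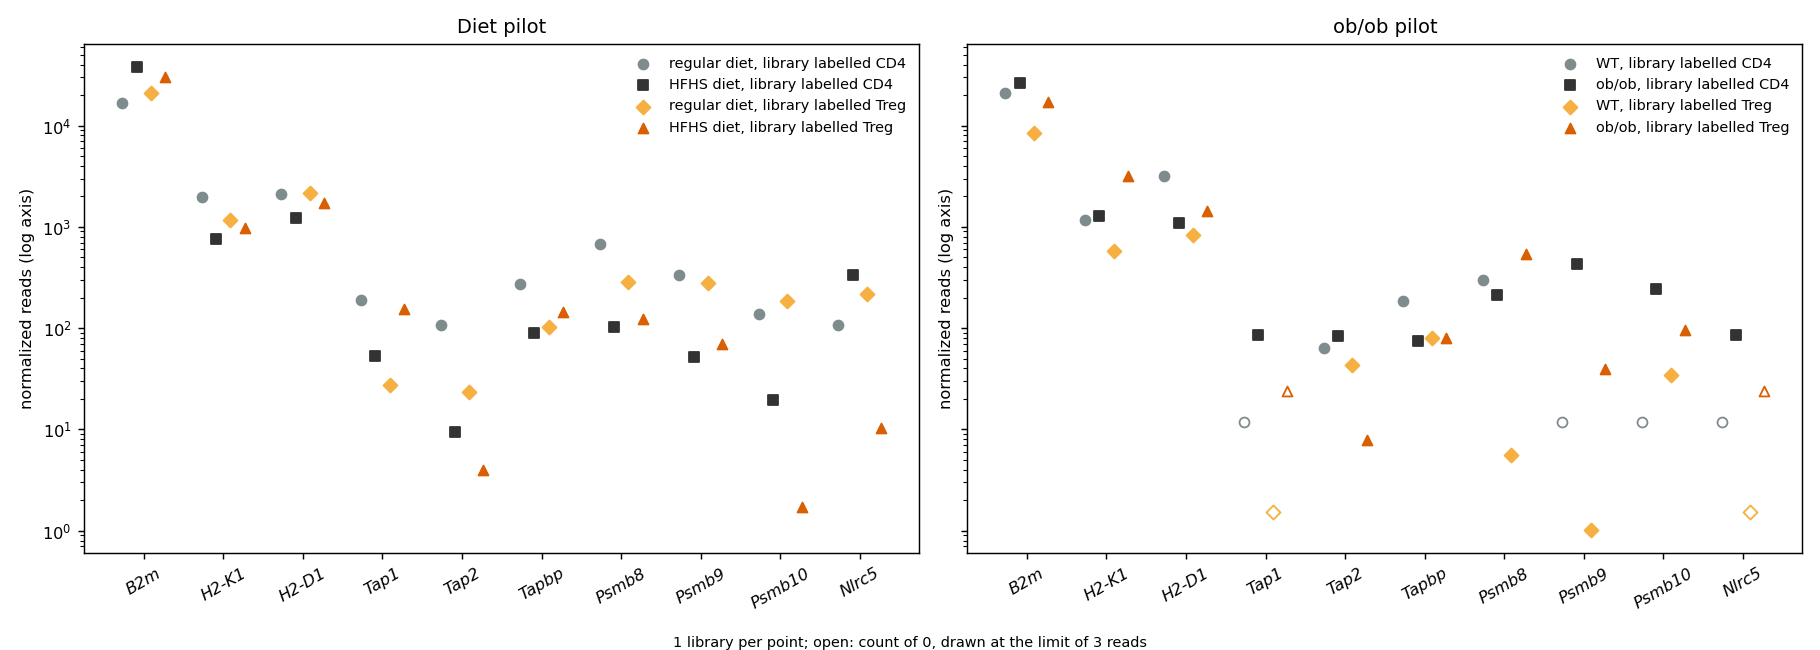
Normalized reads (log axis) of each gene in the 8 pilot libraries, 4 of the diet pilot and 4 of the ob/ob pilot in a panel each, with 1 marker per library, drawn open at the limit of 3 reads where the count was 0. Tap1, Psmb9, Psmb10 and Nlrc5 are open in the WT CD4+ library.

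Among themselves, the members did not vary as 1 block across the 29 activated Tconv libraries. On log2(CPM + 1), as deviations from the mean of each group of strain, tissue and diet, Pearson's r was 0.78 between H2-K1 and H2-D1, 0.69 between H2-K1 and Tapbp and 0.64 between Tap2 and Tapbp. For B2m it was -0.83 to Tapbp and -0.67 to Tap2, and 0.59 to Psmb8. All values of a library share its depth and its total, so the correlations are given as a description. The genes most like the mean of the 8 members outside the heavy chains, ranked by r on the same deviations over 6296 genes with more than 10 counts in each of the 29 libraries, were Ppp1r12c (0.78), Tecpr1 (0.77), Msn (0.77), Vasp (0.76) and Ablim1 (0.75). The median r over all genes was 0.04 and the 99th percentile 0.61. Some of the 8 members were negatively correlated with each other, as B2m was with Tapbp and Tap2. Their mean therefore does not describe each of them, and a gene like the mean need not follow every member.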

How the data were processed

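For the second experiment the authors sequenced paired-end libraries (SMARTer kit) and ran nf-core/rnaseq with default parameters against mm10, with Salmon giving the deposited estimated counts and TPM per RefSeq transcript name. For the pilot the authors mapped single-end reads to mm10 with BWA-mem and deposited HTSeq counts per gene symbol. The versions of Salmon, BWA-mem and HTSeq are not given in the sources used here. Here estimated counts were summed per gene (34648 of 35034 names matched the RefSeq table and 202 the GENCODE one, 24471 features) and rounded. CPM is counts divided by the library total.

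The members and gene lists were chosen with earlier results of these data known. All 10 members were named, and from each other list at most the 4 largest changes among genes called, plus a few fixed pathway genes. Some listed genes are counted but not reported by name here. A gene was tested when the number of libraries with over 10 counts reached the size of the comparison's smallest group. Differences were tested with edgeR 4.0.16 (R 4.3.3, TMM, quasi-likelihood test, Benjamini-Hochberg adjustment over all genes tested, called under 0.05), with the other factors as covariates; the SE is the log2 difference divided by the square root of its F statistic. Alternatives were DESeq2 1.42.0, its size factors in edgeR, limma-voom (limma 3.58.1) with quality weights, a filter of more than 10 counts in total, 1 summed heavy chain feature, pools as a replicate block, strains alone, and leaving out each library (strain, diet) or each pool label, with up to 2 libraries (cell type, tissue). Chosen after seeing the data were library totals, an offset for GC content and length, removal of the 2 libraries that stood apart, paired pools without the pool term, and the strains alone for cell type and tissue. The edgeR step was tested on simulated data. Pilot counts were scaled by size factors (median of ratios, 786 genes), and ratios carry 95% exact binomial intervals, which cover counting error only.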

Additional observations from a re-analysis of the deposited data

Results flagged for a closer look

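In each group of 4 libraries, the highest or lowest level of a member was set against the others by Dixon's criterion. It stood apart in 5 of 120 groups, and chance flags about 1 in 20 groups. B2m was 9655 CPM in the C57Bl/6J SD pool 11_15 of hypothalamic activated Tconv, and Tapbp was 213 CPM in the C57Bl/6J HFHS pool 21_25 of rest-of-brain Tregs, each below the other 3 libraries of its group. The remaining 3 values lay above the other libraries of their group. Tap2 was 354 CPM in the Balb/c SD pool 37_41 of hypothalamic activated Tconv. Tap1 was 354 CPM in the Balb/c HFHS pool 26_31 of hypothalamic Tregs, and Nlrc5 was 449.7 CPM in the Balb/c SD pool 42_46 of the same cells.

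The difference between hypothalamus and rest of the brain in activated Tconv differed between strains for 6 members by the interaction term of edgeR (adjusted p of 0.0002681 to 0.02335). As the tissue difference of Balb/c minus that of C57Bl/6J on the log2 scale, it was -0.98 for B2m, 0.53 for H2-K1, 0.87 for H2-D1, 1.45 for Tap1, 1.40 for Tap2 and 1.29 for Tapbp, against 10.4% of all genes called.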

How the results depend on the processing

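Leaving out each pool label in turn (cell type and tissue, up to 2 libraries at a time) or each library (strain and diet) gave 0 to 0 members called between cell types in the hypothalamus, 6 to 6 in the rest of the brain, 6 to 7 between tissues in activated Tconv, 0 to 1 in Tregs, 2 to 3 and 8 to 10 between strains in hypothalamic and rest-of-brain activated Tconv, 0 to 0 and 1 to 2 in Tregs of the 2 tissues, and 0 to 0 for diet. Over single members, 1871 of these values stayed called in 1 direction or stayed uncalled, 24 lost the call and 5 gained it. Of the values under other alternatives 1001 did likewise (pilot ratios, which carry no call, stayed near their value), 28 lost the call, 13 gained it, 5 reversed with a call on either side and 35, from the pilot, moved. Differences not called in either analysis changed sign in 102 values when libraries were left out and in 103 under other alternatives, so their direction is not settled. Between cell types in the hypothalamus, for example, Tap2 ran from -1.47 to 1.01. Limma-voom gave 1 member called (0 in the main analysis) between cell types in the hypothalamus, 2 (0) between tissues in Tregs, 0 (1) between strains and 2 (0) between diets in rest-of-brain Tregs. DESeq2 gave 2 between strains in rest-of-brain Tregs, where the summed heavy chain gave 0 because it replaces H2-K1. The offset for GC content and length left 4 of 10 between strains in rest-of-brain activated Tconv. C57Bl/6J alone gave 2 of 6 between cell types in the rest of the brain and 0 of 6 between tissues in activated Tconv. The 5 reversals with a call were for B2m with the offset between strains in rest-of-brain activated Tconv (-0.28) and between tissues (0.19), for B2m between tissues in C57Bl/6J alone (0.001), for B2m by voom between diets in rest-of-brain Tregs (0.27), and for Psmb9 between cell types in Balb/c rest of the brain (-0.41). Except for the summed heavy chain, the cause was not tested.

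Pool labels recur between tissues and cell types, and the labels do not say that they mark the same mice. Same-labelled libraries correlated at -0.049 to 0.077 over 46 pairs, none over 0.1, so they were not treated as pairs. With the pool as a replicate block the members called between cell types were 0 in the hypothalamus and 6 outside it, and 0 in activated Tconv and 0 in Tregs between tissues. No paired analysis was possible because each pool belongs to 1 strain and diet, for the comparisons of strain and of diet, and each pilot condition has 1 library.

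Calls over all genes also moved. Between cell types in the hypothalamus they were 869, and 1598 by DESeq2, 7312 by voom, 5623 with the block, 1412 with the looser filter, 1431 in Balb/c, 382 in C57Bl/6J and 1506 without the libraries that stood apart. In the rest of the brain they were 2072, 5263 with the looser filter and 415 in C57Bl/6J. Between tissues they were 2170 in activated Tconv, 6985 with the looser filter, 33 with the block (1731 for the same libraries without it) and 1 in C57Bl/6J, and in Tregs 619, 1193 by DESeq2, 4714 by voom, 0 with the block (7 without it), 0 in C57Bl/6J and 1100 without the libraries apart. Between strains they were 228 and 545 by DESeq2 in hypothalamic activated Tconv, 2891 and 1705 with the offset in the rest of the brain, 3, 250 by DESeq2, 11 with the looser filter and 13 by voom in hypothalamic Tregs, and 35, 298 by DESeq2 and 123 by voom in rest-of-brain Tregs. For diet they were 0, by DESeq2 15, 12, 182 and 326 and by voom 0, 1, 4 and 16 in hypothalamic and rest-of-brain activated Tconv and then Tregs, and 39 with the looser filter in hypothalamic Tregs.

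In the pilot, other scalings gave 4 to 7 members past 2-fold in CD25hi cells and 6 to 7 in ob/ob CD4+ T cells. Between diets they gave 9 in CD4+ T cells and 6 in Tregs throughout, while the ratio of B2m ran from 2.01 to 2.46 and from 1.05 to 1.46. Tap1, Tap2, Tapbp and Nlrc5 had 3 counts or fewer in 1 to 5 of the 59 libraries.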
